A study of Arabidopsis thaliana with 12 samples.

Results

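Transcripts of 3 nuclear genes of photosystem II, PSBY (AT1G67740), PSBW (AT2G30570) and LHB1B2 (AT2G34420), were described in Arabidopsis plants given the herbicide bromoxynil and in plants given water. Members were the probes whose platform annotation names exactly 1 gene, that gene being PSBY, PSBW or LHB1B2. Each of the 3 genes had 1 such probe, among 692 probes with 1 gene and 3439 probes in all. The 3 genes are among 689 loci named by such probes.

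The pBro group received 500 µM bromoxynil and the H2O group received water. All plants were wild type of ecotype Landsberg, and all spent 12 h in the dark and then 30 min in light before sampling. Each group had 6 arrays of total RNA, numbered 1 to 6 in the titles. The labels name neither tissue nor plant age, nor whether the arrays of a group are separate biological samples. The p-values thus cover array-to-array spread, part or all of which may be technical. Of 8 genes that mark green tissue and 6 that mark roots, 0 had a probe of their own, so the cell types in the samples could not be checked. In bulk RNA, fewer cells of a type and less RNA per cell cannot be told apart.

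Photosystem II splits water and passes the electrons to plastoquinone, and bromoxynil blocks that step at the plastoquinone site of the D1 protein. The photosystem is built from plastid-encoded core proteins and from nuclear-encoded small subunits and antenna proteins, whose transcripts respond to light and to signals from the chloroplast. PSBY encodes a small membrane-spanning subunit that lies beside cytochrome b559. PSBW encodes another small membrane-spanning subunit, which in Arabidopsis helps to hold the core together with its antenna. LHB1B2, also called LHCB1.5, encodes a chlorophyll-binding protein of the main light-harvesting antenna, and its neighbour in the RefSeq annotation, LHB1B1, belongs to the same family. LHCB1 genes are near-copies of each other, so transcripts of other LHCB1 genes may add to the LHB1B2 signal, which was not tested.

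The values were relative intensities on a linear scale, on which the same feature was the brightest, at 100, on all 12 arrays. The median intensity over all probes was 0.624 to 0.654 on the pBro arrays and 0.443 to 0.491 on the H2O arrays, and 3.87% to 4.57% of values were 0 on the pBro arrays, against 3.14% to 3.81% on the H2O arrays. The whole distribution also differed in shape. The median lay higher by 0.46 on the log2 scale on pBro arrays, the 95th percentile by 0.00012, and the 99th percentile lay lower on them, with a difference of -0.32. Changes are therefore given on quantile-normalised values, which give every array the same distribution, and beside them on the values as deposited, or after each array was centred on its median. A quantile-normalised value is set by the rank of the probe on its array. A change on that scale and a shift in rank are thus not separate results.

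The PSBW and LHB1B2 probes were among the brightest of the array, whereas that of PSBY lay in the upper part of the distribution. All 3 moved in rank between the groups: LHB1B2 and PSBY ranked lower on every pBro array than on any H2O array, and PSBW ranked higher. A rank is not changed by scaling that keeps the order of probes on an array. It shifts when other probes change, and it depends on how well a probe hybridises as well as on its transcript. Ranks of different probes are thus not transcript abundances.

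Such differences were common on these arrays. The groups did not overlap in percentile rank for 37.5% of all probes, nor on quantile-normalised values, where the 3 genes did not overlap either, for 36.5%. On deposited values this held for 38.5% of probes and for LHB1B2 alone of the 3 genes. In the fit of all probes with limma (adjusted p under 0.05), 54.4% were called on quantile-normalised values, 24.5% higher and 29.9% lower with bromoxynil, and all 3 genes were among them. On deposited values 56.4% were called, 37.8% higher and 18.6% lower, and with medians centred 54.5%, and on both PSBY and LHB1B2 were called and PSBW was not. The shares of the 3 genes rest on 3 probes and are a description.

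LHB1B2, the antenna protein, was the gene with the largest drop of the 3 on deposited values. Its relative intensity was lowest at 6.94, with a median of 7.89 and a highest value of 8.67, on the pBro arrays, against 15.4, 16.4 and 23.3 on the H2O arrays. Every pBro array lay below every H2O array, and the spread was wider with water, where array 6 gave the highest value. The mean was 7.82 ± 0.607 (SD, n = 6) with bromoxynil and 17.5 ± 2.98 (SD, n = 6) with water.

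Counted from the brightest probe, LHB1B2 held positions 30 to 39 of 3439 on the pBro arrays and 12 to 20 on the H2O arrays. Among the 692 probes with 1 gene it stood at position 7 or 8 on the pBro arrays and at 2 to 4 on the H2O arrays. Its percentile among all probes differed by -0.494 points (exact two-sided permutation p = 0.00216, the smallest that 924 assignments of 12 arrays allow).

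LHB1B2 fell 1.85-fold on quantile-normalised values (log2 -0.88 ± 0.12, SE; adjusted p = 8.2e-05, limma, Benjamini-Hochberg over all 3439 probes). The drop was 2.22-fold on deposited values (log2 -1.15 ± 0.11, adjusted p = 5.85e-06, limma) and 3.06-fold with medians centred (log2 -1.61 ± 0.12, adjusted p = 8.61e-07, limma). With values adjusted for place by columns, as described further on, the log2 change was -0.49 and the call was lost (adjusted p = 0.0507, limma). On deposited values 229 of 3439 probes had a lower change than LHB1B2, against 592 on quantile-normalised values.

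Among the small subunits, PSBY had a relative intensity of 0.790 at the lowest, 0.905 at the median and 1.07 at the highest on the pBro arrays, against 1.05, 1.39 and 1.80 on the H2O arrays. The groups overlapped narrowly on this scale, since pBro array 3 lay above H2O array 2. The mean was 0.925 ± 0.111 (SD, n = 6) with bromoxynil and 1.36 ± 0.267 (SD, n = 6) with water.

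In rank, PSBY did not overlap between the groups. It held positions 832 to 1368 on the pBro arrays and 230 to 550 on the H2O arrays. That is a mean percentile of 69.1 ± 5.85 (SD, n = 6) with bromoxynil and 88.8 ± 3.27 (SD, n = 6) with water (difference -19.7 points, exact two-sided permutation p = 0.00216). After the adjustment for place described further on, the difference was -4.22 points (exact permutation p = 0.268).

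PSBY fell 1.80-fold on quantile-normalised values (log2 -0.85 ± 0.12, SE; adjusted p = 0.000113, limma). It also fell on deposited values, by 1.46-fold (log2 -0.55 ± 0.14, adjusted p = 0.00496, limma), and with medians centred, by 2.01-fold (log2 -1.01 ± 0.12, adjusted p = 2.99e-05, limma). After the place adjustment the log2 change was -0.21 ± 0.15 with an adjusted p of 0.276 (limma), and the call was lost.

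PSBW, the other small subunit, went the other way in rank. Its relative intensity was 17.3 at the lowest, 19.7 at the median and 23.2 at the highest on the pBro arrays, against 13.5, 16.1 and 20.9 on the H2O arrays. The groups overlapped, because H2O arrays 1 and 2, at 19.4 and 20.9, lay within the range of the pBro arrays. The mean was 19.9 ± 2.22 (SD, n = 6) with bromoxynil and 16.8 ± 2.82 (SD, n = 6) with water.

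PSBW held positions 11 to 14 of all probes on the pBro arrays and 16 to 22 on the H2O arrays, with no overlap. The mean percentile was higher by 0.199 points with bromoxynil (exact two-sided permutation p = 0.00216). Among probes with 1 gene it stood at position 3 on all 6 pBro arrays and at 3 to 6 on the H2O arrays, which overlapped (exact two-sided permutation p = 0.0606).

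PSBW rose on quantile-normalised values, by 0.67 ± 0.11 (SE) on the log2 scale with an adjusted p of 0.000233 (limma), which is 1.59-fold. On deposited values its log2 change was 0.25 ± 0.12 (95% interval -0.02 to 0.52, adjusted p = 0.104, limma), and with medians centred it was -0.21 ± 0.15 (-0.53 to 0.11, adjusted p = 0.246, limma). The median change of all probes was 0.28 on deposited values and -0.19 with medians centred, and on both 49.0% of probes had a lower change than PSBW. On quantile-normalised values, where the median change was -0.04, that share was 78.3%. Whether PSBW was called higher thus depended on the scale.

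**Figure D1:**
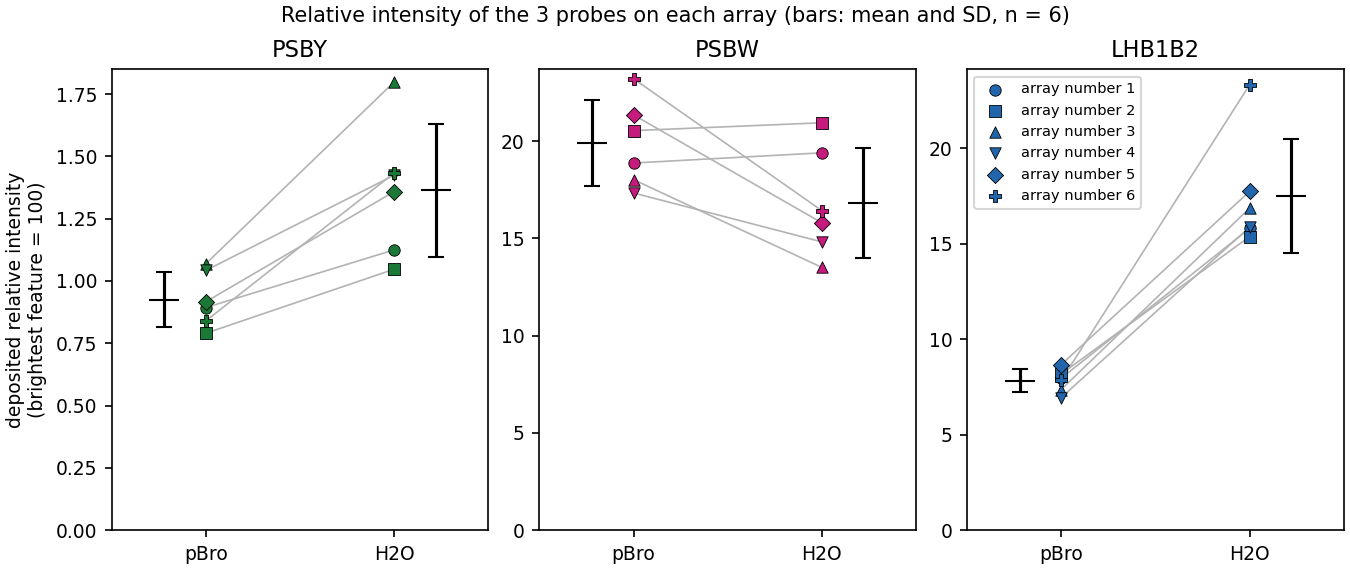
Deposited relative intensity (vertical axes from 0, brightest feature = 100) of the PSBY, PSBW and LHB1B2 probes on the 6 pBro and 6 H2O arrays. Each point is an array, grey lines join arrays of the same number, and bars give the mean and SD. The LHB1B2 groups lie apart, at 6.94 to 8.67 with bromoxynil and 15.4 to 23.3 with water, whereas those of PSBW overlap.

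Probes as bright as PSBW and LHB1B2 moved in both directions. Of the 35 brightest probes (the top 1% by mean level), 9 rose, 16 fell and 10 were not called on quantile-normalised values, and their median log2 change was -0.27. Of the other 34, PSBW had a higher change than 27, and LHB1B2 had a lower change than 24. With medians centred 3 of the 35 rose and 22 fell.

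**Figure D2:**
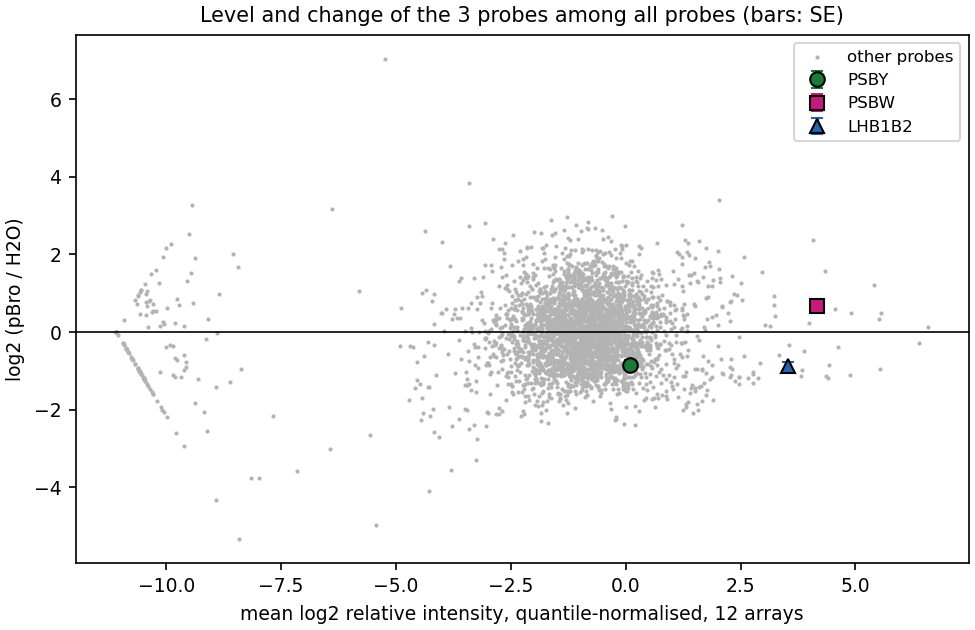
Mean quantile-normalised log2 intensity over 12 arrays (horizontal axis) and log2 change, pBro over H2O (vertical axis), of all 3439 probes. PSBW, at a change of 0.67, and LHB1B2, at -0.88, stand at the bright end, and PSBY, at -0.85, lies nearer the bulk. Bars on the 3 genes are the SE.

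Whether the genes changed unequally was tested on the difference between the log2 values of 2 probes on the same array, from which a factor common to the array cancels on deposited values. PSBW minus LHB1B2 was 1.41 ± 0.12 (SD, n = 6) with bromoxynil and -0.14 ± 0.44 (SD, n = 6) with water on quantile-normalised values. The difference of 1.56 between the groups had an exact permutation p of 0.00216 (0.00325 adjusted over the 3 pairs of genes). On deposited values the ratio of PSBW to LHB1B2 was 2.64-fold higher with bromoxynil (exact permutation p = 0.00216). The PSBW probe was the brighter on 6 of 6 pBro arrays and on 2 of 6 H2O arrays.

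PSBW minus PSBY also differed between the groups, by 1.52 on quantile-normalised values (exact permutation p = 0.00216, adjusted 0.00325) and by 0.80 on deposited values (exact permutation p = 0.013). PSBY minus LHB1B2 differed by 0.04 on quantile-normalised values, with an exact permutation p of 0.786. On deposited values PSBY minus LHB1B2 differed by 0.60 (exact permutation p = 0.00649), since LHB1B2 dropped further there. On deposited values the groups overlapped in PSBW minus PSBY, at 4.06 to 4.79 with bromoxynil and 2.91 to 4.32 with water. After group means were removed, PSBW and PSBY had a Pearson correlation of -0.78 over the 12 arrays on quantile-normalised values. The changes of PSBW and PSBY thus differed on these scales, and whether those of PSBY and LHB1B2 did depended on the scale.

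The direction of LHB1B2 and PSBY was the same in each pair of arrays with the same number. LHB1B2 had a lower deposited intensity with bromoxynil in 6 of 6 numbers, at 0.336 to 0.532 of the H2O array of that number. The lowest ratio was that of number 6, where the H2O array was the brightest. PSBY was lower in 6 of 6 numbers, at ratios of 0.586 to 0.794.

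PSBW depended on the number. Its deposited ratio, pBro over H2O, was 0.973 and 0.981 for numbers 1 and 2, and 1.33, 1.17, 1.35 and 1.41 for numbers 3, 4, 5 and 6. It was thus higher in 4 of 6 numbers on deposited values, and with medians centred in 3 of 6. On quantile-normalised values it was higher in 6 of 6, with log2 changes of 0.33 to 1.04, and it gained 3 to 11 positions towards the brightest probe. The gain in positions and these changes are not separate results, since the rank sets the quantile-normalised value.

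Numbers 1 and 2 also set the H2O arrays apart for both small subunits. The H2O arrays 1 and 2 gave PSBW values of 19.4 and 20.9, against 13.5 to 16.4 on numbers 3 to 6, and PSBY values of 1.13 and 1.05, against 1.36 to 1.80. For LHB1B2 the H2O arrays 1 and 2 gave 15.8 and 15.4, at the low end of a range that went on to 15.9 to 23.3 for the others. Over all probes, arrays of the same number in both groups deviated together from their group means, with correlations of 0.323 to 0.418, so the numbers were taken to pair the arrays. Arrays of different numbers were not compared in this way, so these values do not show that each number is a pair. With the number as a replicate block, no call on the 3 genes changed, while 59.8% of all probes were called. The permutation tests take the 12 arrays as independent. With signs flipped within the 6 numbers instead, the rank differences of the 3 genes and the differences of PSBW from PSBY and from LHB1B2 each had an exact p of 0.0312, the smallest that 6 pairs allow. The flips in turn take the 6 numbers as independent, which the labels do not state. If consecutive numbers are repeats of 1 sample, 3 values per group remain, and the exact permutation test cannot go below p = 0.1.

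**Figure D3:**
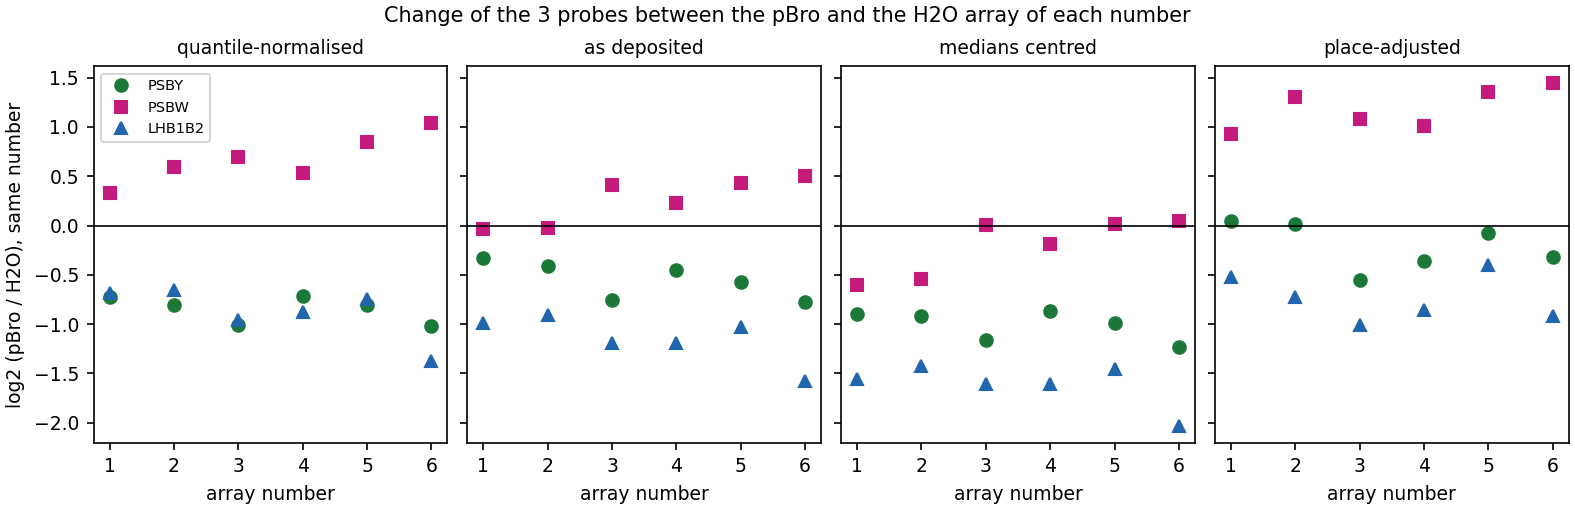
Log2 change between the pBro and the H2O array of each number (horizontal axis, 1 to 6) for the 3 genes, in 4 panels for quantile-normalised, deposited, median-centred and place-adjusted values. LHB1B2 is below 0 in every panel, PSBY in all but the last, and PSBW is at -0.04 and -0.03 for numbers 1 and 2 on deposited values and at -0.60 to 0.04 over the 6 numbers with medians centred.

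No layout of the array was used, and the place of a probe was inferred as its number within a repeat of 288 probe numbers, found in differences between H2O arrays. At that lag the log2 change between the groups had a rank autocorrelation of 0.379 over probes, a description across probes that are not independent. PSBW and LHB1B2 shared the same place, 73, in different repeats, and PSBY had place 14. Of the 156 other probes within 6 places of LHB1B2, 73 fell and 19 rose, and their median log2 change was -0.45. LHB1B2 had a lower change than 114 of them. The same neighbourhood holds PSBW, which had a higher change than 145 of its 156 near probes. Of the 157 probes near PSBY, 93 fell and 8 rose, with a median of -0.56. PSBY had a lower change than 104 of them and a higher change than 53.

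The median of the near probes and then that of each repeat were subtracted from the quantile-normalised values of each array. LHB1B2 still passed the test after this, at a log2 value of -0.74 ± 0.13 (adjusted p = 0.000499, limma). PSBW had a change of 1.19 ± 0.09 (adjusted p = 1.17e-06, limma). The adjustment was not run on deposited or median-centred values, on which PSBW was not called. PSBY did not pass, as given above, and its change was below 0 in 4 of 6 numbers. On place-adjusted values 47.5% of all probes were called, and 47.4% with the columns described next. With the median of each of 12 columns of probe numbers in place of each repeat, LHB1B2 was at -0.49 ± 0.19 in log2 (adjusted p = 0.0507, limma), so its call depended on that choice, while PSBW kept its call at 1.07 ± 0.10. Since PSBW and LHB1B2 have the same place, the near-probe median cancels from their difference, which the adjustment therefore does not test.

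**Figure D4:**
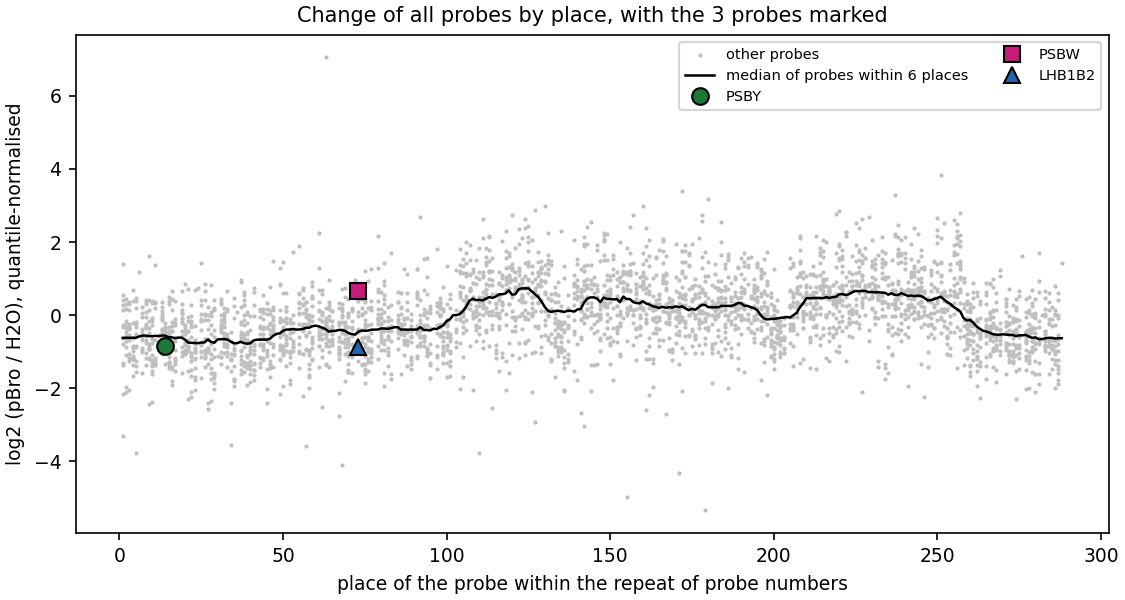
Log2 change of all probes on quantile-normalised values (vertical axis) by place within the repeat of 288 probe numbers (horizontal axis), with the median of probes within 6 places as a line. PSBY lies below the line at place 14. At place 73 LHB1B2 also lies below it, and PSBW lies above it.

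The lists of pathway genes around the 3 genes were thinly covered. They hold 69 genes of photosystem II, its antenna and assembly, photosystem I, electron carriers and ATP synthase. Of these, 5 had a probe of their own: the 3 genes above, PSB27 and PSAN. The lists are not complete, since LPA19, a photosystem II assembly protein given below, had its own probe but was not listed. Of the 5 listed genes, 1 rose, 2 fell and 2 did not pass the test on quantile-normalised values, where 54.4% of all probes were called. Those called are the 3 genes described above. The median log2 change of the 5 was -0.71, which is the value of PSB27, against -0.04 for all probes. Another 7 probes name a gene of these lists together with others and are not named here. None of the other 13 antenna genes and 10 core or oxygen-evolving subunits on the lists was measured alone.

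PSB27 (AT1G03600) encodes a lumenal protein that binds photosystem II during its assembly and repair. Its relative intensity was 0.321, 0.820 and 1.03 at the lowest, median and highest on the pBro arrays, against 0.227, 1.25 and 1.41 on the H2O arrays. Numbers 1 and 2 were low in both groups, at 0.321 to 0.352 with bromoxynil and 0.227 to 0.520 with water. The log2 change was -0.71 ± 0.47 with an adjusted p of 0.228 (limma). It passed with the replicate block (adjusted p = 0.00851, limma). Among the 12 fits that each left out 1 array, only that without H2O array 2 passed (log2 -1.07, adjusted p = 0.0296, limma). The other such fits had adjusted p-values of 0.188 to 0.396 (limma). With the block PSB27 also passed with medians centred (log2 -0.84, adjusted p = 0.00422, limma). With the block it did not pass on deposited values (log2 -0.38, adjusted p = 0.0911, limma) or after the place adjustment (log2 -0.36, adjusted p = 0.125, limma).

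PSAN (AT5G64040) encodes a lumenal subunit of photosystem I at the docking side of plastocyanin. Its values were 2.94, 5.72 and 6.35 on the pBro arrays and 4.76, 6.35 and 8.96 on the H2O arrays, and the groups overlapped. Over numbers 1 to 6 the pBro values were 6.21, 6.35, 3.17, 2.94, 5.67 and 5.77. Numbers 1 and 2, 3 and 4, and 5 and 6 thus lay close together there. The H2O values were 8.96, 7.89, 4.76, 4.98, 7.25 and 5.45. The log2 change was -0.12 ± 0.23 (adjusted p = 0.705, limma), and with medians centred it was -0.87 ± 0.26 (adjusted p = 0.014, limma). With the replicate block PSAN passed on deposited values (log2 -0.41, adjusted p = 0.0239, limma) and with medians centred (adjusted p = 0.000923, limma). It did not pass with the block on quantile-normalised values (adjusted p = 0.426, limma) or after the place adjustment (adjusted p = 0.767, limma).

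The genes with the most similar patterns over the 12 arrays were sought among 498 other probes with 1 gene above the dimmest 25%. These arrays share the treatment difference and the array numbers, so the correlations describe these arrays only. For PSBY they were AT2G40980, AT4G27390 and AT3G12930, with Pearson correlations of 0.979, 0.966 and 0.950 on quantile-normalised log2 values. After the group means were removed the correlations were 0.892, 0.774 and 0.765.

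For PSBW they were AT4G38670, PRA1.B6 (AT5G07110) and AT5G35100, at 0.969, 0.964 and 0.953, or 0.852, 0.792 and 0.743 with group means removed. AT4G38670 is a thaumatin-like protein, and PRA1.B6 is a prenylated Rab acceptor protein of membrane traffic.

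For LHB1B2 they were AT3G12930, the Calvin cycle enzyme PRK (AT1G32060) and LPA19 (AT1G05385), a photosystem II assembly protein, at 0.949, 0.949 and 0.944. With group means removed the correlations were 0.761, 0.643 and 0.566. LPA19 was not on the lists of pathway genes. Its relative intensity was 0.457 ± 0.0588 (SD, n = 6) with bromoxynil and 0.753 ± 0.111 (SD, n = 6) with water. AT3G12930, named for both PSBY and LHB1B2, had 0.485 ± 0.0443 (SD, n = 6) with bromoxynil and 0.617 ± 0.141 (SD, n = 6) with water. These genes were chosen for following a gene that differed between the groups, so their own difference between the groups is a description and was given no test.

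**Figure D5:**
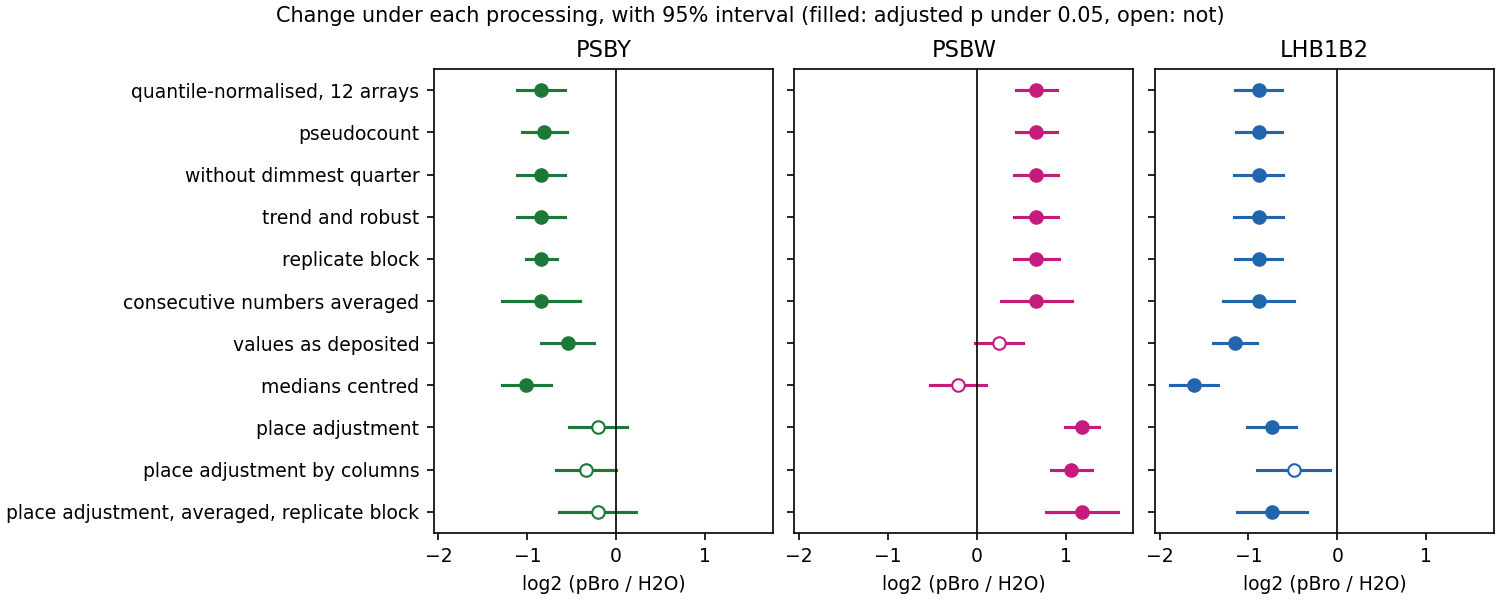
Log2 change, pBro over H2O (horizontal axis), of each gene under 11 ways of processing (rows), with 95% intervals. Filled points have an adjusted p under 0.05 and open points do not. PSBY is open after each of the 3 place adjustments, PSBW on deposited and median-centred values, and LHB1B2 after the adjustment by columns.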

How the data were processed

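The deposited table holds, per its values, array intensities on a linear scale relative to the brightest feature. Scanning, background treatment and spot averaging by the authors are not described in the labels used here. Precision is limited by the number of arrays. A zero took the lowest value above 0 on its array, and values were taken as log2 and quantile-normalised, and all 3439 probes were fitted with limma 3.58.1 (lmFit, eBayes, two-sided) in R 4.3.3, with a threshold of 0.05. Per-array ranks and differences were compared by exact permutation. Members, lists, tests and the named genes (members, measured list genes and, for each member, the 3 most correlated probes) were chosen with earlier results of these data known.

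Probes were named from GEO's platform annotation through gene identifiers of TAIR10.1, used for names and neighbours only. Of 692 probes with 1 gene, 690 matched. Where pairs were used, same-number arrays were assumed to be pairs from the data (correlations of 0.323 to 0.418), since the labels leave the meaning of a number unstated. The repeat of 288 was the lag, from 50 to 1151, of the highest rank autocorrelation in H2O arrays 1 and 2 minus 3 and 4. The fit and the place adjustment were tested on simulated data. Figures were drawn with matplotlib 3.10.9.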

Additional observations from a re-analysis of the deposited data

How the results depend on the processing

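The changes of the 3 genes kept their direction and call with a pseudocount of 0.05, without the dimmest 25% of probes, with a variance trend, with the replicate block (LHB1B2 at -0.88, PSBY at -0.85, PSBW at 0.67) and with consecutive numbers averaged. PSBY lost its call after the place adjustment, alone, with the replicate block, or with averaging and block (-0.21 each), and by columns (-0.34), as did LHB1B2 by columns (-0.49). PSBW lost it on deposited values (0.25) and turned to -0.21 with medians centred, with and without the replicate block. The cause was not tested. The count of called probes was 1872, and 1230 with averaging, which leaves fewer samples, 1633 with the place adjustment, and 1008 with averaging, place adjustment and block together. In rank, PSBY differed by -4.22 points after the place adjustment (exact permutation p = 0.268) and by -7.62 by columns (p = 0.0541, exact permutation), and PSBW by 0.217 among probes with 1 gene. PSBY minus LHB1B2 passed on deposited values (0.60) and after the place adjustment (0.53), but not by columns (0.15, exact permutation p = 0.147). With consecutive numbers averaged, the exact permutation test of 3 against 3 values cannot go below p = 0.1, so the rank differences of -19.7 (PSBY), 0.199 (PSBW) and -0.494 (LHB1B2) and the differences of 1.52 (PSBW minus PSBY) and 1.56 (PSBW minus LHB1B2) could not pass. Leaving out each array in turn gave changes of -0.91 to -0.77 for PSBY, 0.63 to 0.72 for PSBW and -0.93 to -0.78 for LHB1B2, counts of 1754 to 1891, and a PSBY minus LHB1B2 of -0.045 to 0.096. The deposition of intensities alone, with no measure of signal over background, limits what can be said of detection.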
